A study of Homo sapiens with 9 samples.

Results

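The genes described here are 10 members of the NRF2 pathway: NFE2L2, which encodes the transcription factor NRF2, and its antioxidant and aldo-keto reductase targets NQO1, AKR1C1, AKR1C2, AKR1C3, TXNRD1, GCLC, GCLM, SRXN1 and HMOX1. They were taken by gene name from the deposited tables, 10 of 78894 genes, and all 10 passed the filter on low counts. They were chosen by measured values, with the levels and fold changes of NQO1 and the AKR1C genes in these libraries already known, so the members' levels and fold changes are a description and not a test. The libraries came from Hap1, a human line of leukaemic origin with a near-haploid genome. In all groups the endogenous SARS2 gene, which encodes mitochondrial seryl-tRNA synthetase, was deleted, a FLAG-tagged copy was present under doxycycline control, and doxycycline was withheld for 6 days. The groups differed in the constitutively expressed, myc-tagged SARS2 copy, labelled int14, which was R227Q (3 libraries), H448L (3 libraries) or wild type (WT, 3 libraries). Neither the promoter of that copy nor the number of clones or cultures behind a group's libraries is stated, so the spread between libraries, on which the p-values rest, may be technical.

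NRF2 is held at a low level by KEAP1, an adaptor that presents it to the CUL3 ubiquitin ligase for degradation. Electrophiles and oxidants modify KEAP1, NRF2 then accumulates and, paired with a small MAF protein, binds antioxidant response elements near genes for glutathione synthesis, thioredoxin reduction, NADPH supply and the reduction of quinones and carbonyls. The control acts mainly on the protein, so the NFE2L2 transcript need not follow the activity. HMOX1 is also repressed by BACH1, which binds the same elements.

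Total counts ran from 9900899 to 12991061 per library, so 1 count stood for 0.0770 to 0.101 CPM (counts per 1000000). The libraries were deposited in 2 tables, SDKYMR with 3 libraries (R227Q 1, WT 1 and WT 2) and 4LJFHN with 6 (R227Q 2 and 3, H448L 1 to 3 and WT 3), and 7409 of 16908 genes tested differed between them (edgeR, adjusted p under 0.05). The fits reported here therefore held a table term. The meaning of the table codes was not stated. Inside 1 table, H448L can be set against WT 3 alone. SARS2 stood at 7.09 to 8.68 CPM in R227Q, 7.88 to 8.68 CPM in H448L and 6.20 to 8.54 CPM in WT libraries, and the tables do not tell the SARS2 copies apart. Its log2 fold change was 0.18 ± 0.12 (SE) for R227Q and 0.28 ± 0.15 for H448L against WT (edgeR adjusted p = 0.38 and 0.29). A same-strand gene, AC011455.2, overlaps SARS2 over 15493 bases and may share reads with it. AC011455.2 had 20 to 56 counts per library, beside 68.5 to 110 for SARS2. MRPS12, on the opposite strand, overlaps SARS2 over 349 bases and had 514.5 to 1293 counts. As the strand setting was not given, MRPS12 may share reads with SARS2 too. Of 9 haematopoietic markers, 8, PTPRC, CD34 and SPI1 among them, stayed under 1 CPM in each of the 9 libraries. The ninth, HBG1, was at 0 in the SDKYMR libraries and reached 19.9 CPM in 4LJFHN. The summed level of that list was 2.20 to 16.9 CPM in R227Q, 15.8 to 21.9 CPM in H448L and 1.83 to 17.5 CPM in WT libraries. Summed epithelial markers (5 genes, 2 under 1 CPM) were at 84.8 to 92.2 CPM in R227Q, 79.2 to 89.8 CPM in H448L and 78.0 to 81.5 CPM in WT libraries. Summed neural markers (6 genes, 1 under 1 CPM) were at 172.6 to 184.8 CPM in R227Q, 172.7 to 182.7 CPM in H448L and 188.9 to 196.2 CPM in WT libraries. Summed fibroblast markers (7 genes, 2 under 1 CPM, most of the sum being VIM) were at 1112 to 1590, 1450 to 1468 and 1127 to 1527 CPM in R227Q, H448L and WT libraries. The epithelial sum of R227Q and the neural sums of both variants did not overlap WT, and their part in the results below was not tested.

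The aldo-keto reductases AKR1C1, AKR1C2 and AKR1C3 reduce ketosteroids, prostaglandins and reactive carbonyls with NADPH. All were higher in both variants than in WT cells, by 2.29-fold, 2.44-fold and 1.51-fold in R227Q cells and by 1.89-fold, 2.39-fold and 1.63-fold in H448L cells, in the fit with the table term. In bulk RNA, a change in the share of expressing cells and one in RNA per cell cannot be told apart. The genes lie close together on chromosome 10 of GRCh38: AKR1C1 (ENSG00000187134) at 4963253 to 4983283 on the plus strand, AKR1C2 (ENSG00000151632) at 4987400 to 5018031 on the minus strand and AKR1C3 (ENSG00000196139) at 5035354 to 5107686 on the plus strand, per GENCODE 29. Their coding sequences are near copies. Over 969 aligned coding bases, AKR1C2 matched AKR1C1 at 98.0% and AKR1C3 matched it at 91.4%. The 250 bases upstream of the RefSeq starts (GRCh38.p14) are printed 5′ to 3′ to show how alike the paralogs are there. The GENCODE positions begin further upstream. The AKR1C2 and AKR1C3 stretches therefore lie inside those positions, and the AKR1C1 stretch lies partly inside them. Capitals in AKR1C2 and AKR1C3 mark bases that, inside the aligned stretch, differ from AKR1C1 or have no partner there. Bases beyond the ends of that stretch are in lower case.
AKR1C1, chr10:4963165-4963414, plus strand: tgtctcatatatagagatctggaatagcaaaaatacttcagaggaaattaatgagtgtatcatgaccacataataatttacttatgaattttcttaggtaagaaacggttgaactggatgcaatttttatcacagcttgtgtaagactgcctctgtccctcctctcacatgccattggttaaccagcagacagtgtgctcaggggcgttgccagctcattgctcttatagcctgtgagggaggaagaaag
AKR1C2, chr10:5003858-5004107, minus strand: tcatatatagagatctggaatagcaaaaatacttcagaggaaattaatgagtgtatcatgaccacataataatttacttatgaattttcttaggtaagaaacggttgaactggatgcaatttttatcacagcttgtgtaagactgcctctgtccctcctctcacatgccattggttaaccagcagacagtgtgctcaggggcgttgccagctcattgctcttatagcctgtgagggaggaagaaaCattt
AKR1C3, chr10:5094164-5094413, plus strand: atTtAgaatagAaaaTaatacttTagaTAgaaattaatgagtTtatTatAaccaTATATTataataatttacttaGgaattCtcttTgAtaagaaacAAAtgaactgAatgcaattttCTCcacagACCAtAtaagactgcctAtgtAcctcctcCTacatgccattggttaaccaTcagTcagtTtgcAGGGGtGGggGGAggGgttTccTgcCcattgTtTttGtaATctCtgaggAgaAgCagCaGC
Aligned to AKR1C1, 245 of 246 columns were the same in AKR1C2 and 185 of 250 in AKR1C3. RefSeq lists a second AKR1C3 start further upstream, whose 250 bases also matched at 185 of 250. Because transcripts this similar can share reads, and AKR1C counts included fractions, the division of counts among the paralogs is uncertain.

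AKR1C1 carried the largest counts of the trio in R227Q and H448L libraries. Its level was 11.5, 15.0 and 14.0 CPM in R227Q 1 to 3, 11.6, 13.0 and 11.3 CPM in H448L 1 to 3, and 5.23, 5.01 and 6.20 CPM in WT 1 to 3. The WT libraries were all under 7 CPM and the variant libraries all above 11 CPM, so the variants did not overlap WT. Means were 13.5 ± 1.77, 11.96 ± 0.92 and 5.48 ± 0.63 CPM in R227Q, H448L and WT (SD, n = 3 each). Set against WT, R227Q had a log2 fold change of 1.19 ± 0.12 (SE), and H448L one of 0.92 ± 0.14. Within tables, R227Q differed from WT by 1.15 in SDKYMR and 1.20 in 4LJFHN, and H448L by 0.92 in 4LJFHN, on the log2 CPM scale. H448L differed from R227Q by −0.28 ± 0.10, and the libraries of these groups overlapped.

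AKR1C2 was the least abundant paralog, with 6.5 to 37.67 counts per library. It stood at 3.07, 1.54 and 1.38 CPM in R227Q 1 to 3, 1.51, 1.29 and 1.36 CPM in H448L 1 to 3, and 1.31, 1.22 and 0.588 CPM in WT 1 to 3. R227Q 1, in SDKYMR, stood apart from the other variant libraries, and H448L overlapped WT in raw CPM. The table term moved the comparison: the AKR1C2 level was lower in 4LJFHN than in SDKYMR by a log2 difference of −1.18 ± 0.26 (edgeR adjusted p = 0.00036). R227Q was 1.29 ± 0.26 and H448L 1.26 ± 0.34 above WT on the log2 scale, and within 4LJFHN the differences were 1.17 and 1.12. The R227Q call was lost without R227Q 1 (1.38), and the H448L call without WT 3 (1.22), R227Q 1 (1.34) or H448L 1 (1.19). Without the table term the values were 0.90 and 0.36, and neither was called, nor were they in the 4LJFHN table alone (1.38 and 1.33).

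AKR1C3, also known for converting androstenedione to testosterone, had 10.8, 5.89 and 7.49 CPM in R227Q 1 to 3, 7.30, 7.94 and 6.50 CPM in H448L 1 to 3, and 6.16, 8.35 and 4.25 CPM in WT 1 to 3. All groups overlapped in raw CPM. The lowest and the highest library of R227Q were in different tables, as were those of WT. AKR1C3 too was lower in 4LJFHN, by −0.77 ± 0.14 on the log2 scale (edgeR adjusted p = 5.0e-05). With the table term, R227Q differed from WT by 0.59 ± 0.14 and H448L by 0.71 ± 0.18. Within tables, R227Q differed by 0.57 in SDKYMR and 0.61 in 4LJFHN and H448L by 0.72 in 4LJFHN. The R227Q call was lost without WT 3 (0.56) or R227Q 1 (0.64), and the H448L call without WT 3 (0.67), R227Q 1 (0.75) or H448L 2 (0.64). Without the table term the values were 0.33 and 0.14 and neither was called, and in the 4LJFHN table alone the R227Q call was lost (0.64).

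Summing the AKR1C family sets the division among paralogs aside. The sum of AKR1C1 to AKR1C4 was 25.4, 22.4 and 22.8 CPM in R227Q 1 to 3, 20.4, 22.2 and 19.2 CPM in H448L 1 to 3, and 12.7, 14.6 and 11.04 CPM in WT 1 to 3. The variant libraries did not overlap the WT libraries. Mean sums were 23.6 ± 1.62, 20.6 ± 1.54 and 12.8 ± 1.77 CPM in R227Q, H448L and WT (SD, n = 3 each). Fitted as 1 feature, the sum was higher than in WT by a log2 fold change of 0.94 ± 0.09 in R227Q cells (1.92-fold) and by 0.82 ± 0.11 in H448L cells (1.76-fold), and H448L differed from R227Q by −0.13 ± 0.08. The division of the sum differed between the tables. AKR1C1 took 45.4% of it in R227Q 1, 41.2% in WT 1 and 34.4% in WT 2, the libraries of SDKYMR, and 56.1% to 66.9% in those of 4LJFHN. AKR1C4, the liver paralog, had 0 counts in 8 libraries and 0.33 in H448L 3.

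**Figure D1:**
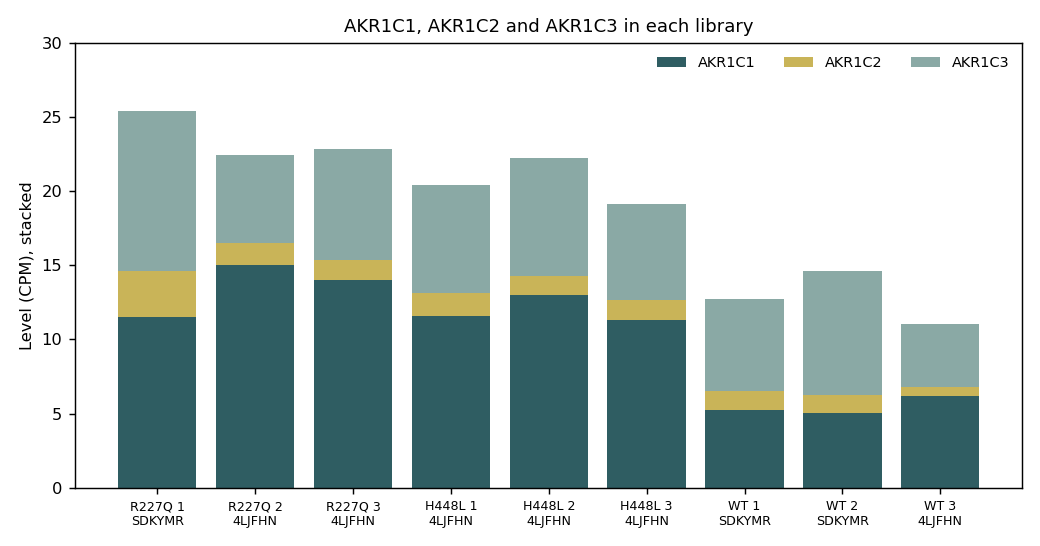
Stacked bars give the level of AKR1C1, AKR1C2 and AKR1C3 (CPM, vertical axis from 0) in each library (horizontal axis, with its deposited table). The 6 variant libraries reach 19.2 to 25.4 CPM and the 3 WT libraries 11.04 to 14.6 CPM, and the AKR1C1 share is larger in the 4LJFHN libraries.

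NQO1 (ENSG00000181019, chromosome 16, 69706996 to 69726951, minus strand) encodes the quinone reductase that is a standard readout of NRF2 activity. NQO1 had 156.6, 163.7 and 161.0 CPM in R227Q 1 to 3, 140.3, 137.1 and 141.5 CPM in H448L 1 to 3, and 112.1, 113.3 and 115.6 CPM in WT 1 to 3. R227Q was highest, H448L in between and WT lowest, and no library of a group overlapped another group. The means were 160.5 ± 3.58, 139.6 ± 2.29 and 113.7 ± 1.79 CPM in R227Q, H448L and WT (SD, n = 3 each).

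NQO1 was 1.39-fold higher in R227Q than in WT cells, a log2 fold change of 0.47 ± 0.04 (SE), and 1.18-fold higher in H448L than in WT cells (0.24 ± 0.05). Within tables, R227Q differed by 0.46 in SDKYMR and 0.48 in 4LJFHN, and H448L by 0.25 in 4LJFHN. NQO1 did not differ between tables beyond its error (−0.01 ± 0.04). H448L was lower than R227Q by a log2 fold change of −0.23 ± 0.04. The H448L call against WT was lost without WT 3 (0.23), and the call against R227Q without R227Q 2 (−0.22), R227Q 3 (−0.23) or H448L 2 (−0.21). Both calls were lost without the table term, at like values (0.24 and −0.23).

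**Figure D2:**
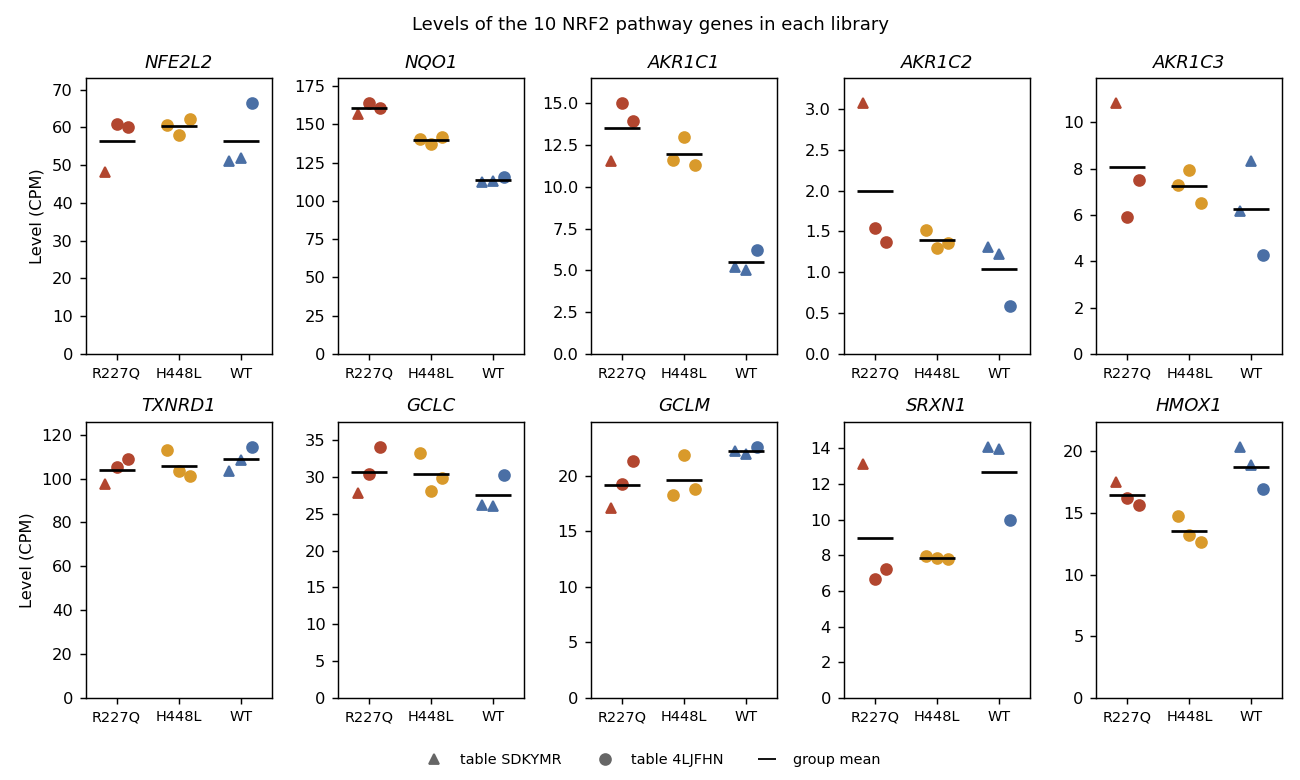
Each panel gives 1 gene's level (CPM, vertical axis from 0) in the R227Q, H448L and WT libraries (horizontal axis). Triangles are SDKYMR libraries, circles 4LJFHN libraries, and bars are group means. NQO1 and AKR1C1 separate both variants from WT, whereas NFE2L2, AKR1C3 and TXNRD1 overlap between all groups.

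NFE2L2 itself (ENSG00000116044, chromosome 2, 177227595 to 177392697, minus strand) was not higher in either variant. Its level was 48.1, 61.0 and 60.2 CPM in R227Q 1 to 3, 60.6, 58.0 and 62.2 CPM in H448L 1 to 3, and 51.1, 51.9 and 66.3 CPM in WT 1 to 3. The groups overlapped, and the SDKYMR libraries were lower than those of 4LJFHN, which differed from them by 0.30 ± 0.05 on the log2 scale (edgeR adjusted p = 3.2e-05). R227Q differed from WT by −0.13 ± 0.05 and H448L by −0.15 ± 0.06 on the log2 scale, neither of them called. The sign for H448L turned without the table term (0.04). An overlapping same-strand gene, AC019080.1, had 44 to 104 counts, which may share reads with NFE2L2. AGPS, on the opposite strand, overlaps NFE2L2 over 54 bases and had 840 to 1190.5 counts. With the strand setting not given, it may share reads too.

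The catalytic and the modifier subunit of glutamate-cysteine ligase, the rate-limiting enzyme of glutathione synthesis, are encoded by GCLC and GCLM. GCLC (ENSG00000001084) had 27.8, 30.4 and 34.0 CPM in R227Q 1 to 3, 33.3, 28.1 and 29.8 CPM in H448L 1 to 3, and 26.2, 26.0 and 30.3 CPM in WT 1 to 3. These groups overlapped, and R227Q stood at 0.08 ± 0.08 and H448L at −0.02 ± 0.09 relative to WT (log2). The H448L value turned positive with upper-quartile factors, without the table term, and without R227Q 3, H448L 2 or H448L 3.

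GCLM (ENSG00000023909, chromosome 1) had 17.1, 19.2 and 21.3 CPM in R227Q 1 to 3, 18.3, 21.9 and 18.8 CPM in H448L 1 to 3, and 22.3, 22.0 and 22.6 CPM in WT 1 to 3. Each variant library was below each WT library. On the log2 scale R227Q stood −0.27 ± 0.09 and H448L −0.29 ± 0.10 from WT. Inside SDKYMR R227Q differed by −0.38, and inside 4LJFHN R227Q differed by −0.17 and H448L by −0.23. The R227Q call was lost without any 1 of WT 1 (−0.25), WT 2 (−0.26), WT 3 (−0.38), R227Q 1 (−0.16) or R227Q 2 (−0.25), and a call for H448L appeared without H448L 2 (−0.37). The R227Q call was also lost with DESeq2 (−0.28), without the table term (−0.24) and in the 4LJFHN table alone (−0.17).

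TXNRD1 (ENSG00000198431, chromosome 12), cytosolic thioredoxin reductase, had 97.6, 105.5 and 109.2 CPM in R227Q 1 to 3, 113.0, 103.5 and 101.3 CPM in H448L 1 to 3, and 103.5, 108.5 and 114.3 CPM in WT 1 to 3. The groups overlapped. R227Q stood −0.11 ± 0.05 and H448L −0.14 ± 0.06 from WT (log2), and a call for H448L appeared without H448L 1 (−0.20). The ribosomal protein pseudogene RPL18AP3 lies inside TXNRD1 on the same strand and had 4848.6 to 5718.8 counts, so a part of either gene's counts may belong to the other.

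SRXN1 (ENSG00000271303, chromosome 20), sulfiredoxin, restores over-oxidized peroxiredoxins. It had 13.1, 6.66 and 7.21 CPM in R227Q 1 to 3, 7.95, 7.84 and 7.78 CPM in H448L 1 to 3, and 14.0, 14.0 and 9.95 CPM in WT 1 to 3. SRXN1 was high in the libraries of SDKYMR and lower in 4LJFHN, by −0.75 ± 0.11 on the log2 scale (edgeR adjusted p = 1.6e-06). R227Q stood −0.27 ± 0.11 from WT on the log2 scale, with −0.10 within SDKYMR and −0.52 within 4LJFHN, and H448L −0.20 ± 0.14. Without R227Q 1 the R227Q value was −0.53 and was called, and without WT 3 the H448L value turned to 0.06. Nearly the same counts were given to another annotated gene, ENSG00000270299, that overlaps SRXN1 on the same strand over 6745 bases. In 7 of 9 libraries both genes had equal counts, and the largest difference was 1 count. With both genes summed, the R227Q value was −0.27 and was called, but with counts so nearly equal the sum may hold the same reads more than once, so that call carries no weight.

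HMOX1 (ENSG00000100292, chromosome 22), haem oxygenase 1, which breaks down haem, had 17.5, 16.2 and 15.6 CPM in R227Q 1 to 3, 14.8, 13.2 and 12.6 CPM in H448L 1 to 3, and 20.3, 18.9 and 16.9 CPM in WT 1 to 3. The H448L libraries were below all others, and R227Q overlapped WT. R227Q stood −0.14 ± 0.09 from WT on the log2 scale, and H448L −0.37 ± 0.11, 1.29-fold lower. Within 4LJFHN these differences were −0.09 and −0.34. The H448L call was lost without WT 1 (−0.35), WT 3 (−0.42), R227Q 1 (−0.34), H448L 2 (−0.34) or H448L 3 (−0.32), and also without the table term (−0.52) and in the 4LJFHN table alone (−0.34).

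**Figure D3:**
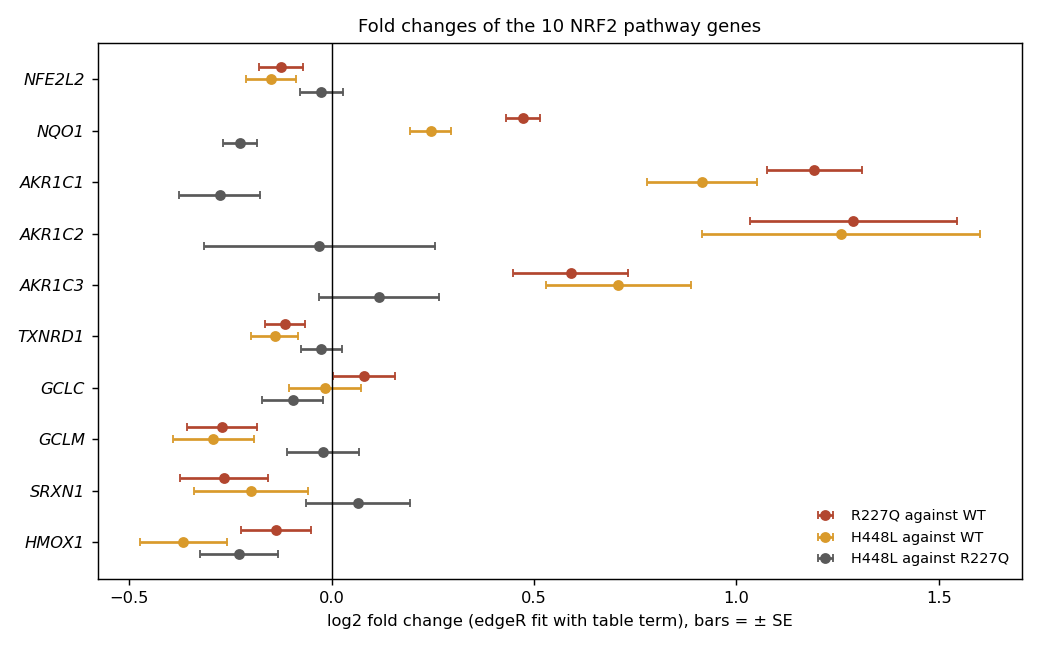
Points are log2 fold changes (horizontal axis) of the 10 genes (vertical axis) in each comparison, from the edgeR fit with the table term, and bars are ± 1 SE. The AKR1C genes and NQO1 lie to the right of 0 against WT in both variants, and NFE2L2, TXNRD1, GCLM, SRXN1 and HMOX1 lie to the left in both.

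The upstream sequence of 9 of the 10 genes was searched for the core of the antioxidant response element, spelled TGACNNNGC. HMOX1 had no entry and was not searched. The search covered both strands in the 250 bases before each RefSeq start. Of 35116 such windows in the table, 10.9% held it. Of the 12 windows of the 9 genes with an entry, 3 held it, both of TXNRD1 and that of GCLM. The search finds letters only, and binding of NRF2 to them was not tested. The GCLM window and the downstream TXNRD1 window are printed 5′ to 3′ with the match in capitals.
GCLM, chr1:93909431-93909680, minus strand: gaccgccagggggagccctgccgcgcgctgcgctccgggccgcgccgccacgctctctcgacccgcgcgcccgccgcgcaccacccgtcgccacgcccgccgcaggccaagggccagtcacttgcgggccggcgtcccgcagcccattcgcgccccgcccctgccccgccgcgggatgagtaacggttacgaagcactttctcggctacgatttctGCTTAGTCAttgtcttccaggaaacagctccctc
TXNRD1, chr12:104286782-104287031, plus strand: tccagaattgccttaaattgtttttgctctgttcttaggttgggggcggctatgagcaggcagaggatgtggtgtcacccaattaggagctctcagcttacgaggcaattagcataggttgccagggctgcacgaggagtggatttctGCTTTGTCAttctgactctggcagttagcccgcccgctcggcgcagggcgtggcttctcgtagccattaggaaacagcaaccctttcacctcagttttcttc
The GCLM match began 34 bases before the start and that of TXNRD1 102 bases before it, both on the opposite strand, where they read TGACTAAGC and TGACAAAGC. The upstream TXNRD1 window held TGACTTCGC. The windows of NQO1, AKR1C1, AKR1C2, AKR1C3, NFE2L2, GCLC and SRXN1 did not hold these letters, which says nothing of elements further away.

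Of the 10 genes, 4 were called higher and 1 lower in R227Q against WT, beside 7.50% and 9.91% of all 16908 genes tested, 17.4% in either direction. In H448L against WT, 4 were called higher and 1 lower, beside 2.97% and 4.99% of all genes, 7.97% in either direction. The genes called higher were NQO1, AKR1C1, AKR1C2 and AKR1C3 in both comparisons. The gene called lower was GCLM in R227Q and HMOX1 in H448L. Both comparisons share the WT libraries. The median log2 fold change of the 10 was −0.02 for R227Q and −0.08 for H448L, beside 0.00 and 0.01 for all genes. In H448L against R227Q, 1 of the 10, NQO1, was called lower and none higher, beside 0.124% and 0.0828% of all genes, 0.207% in either direction. As the 10 were named with these results known, these counts describe them and test nothing.

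The rest of the pathway was taken from 5 lists of 82 genes in all, of which 72 were tested. In R227Q against WT, 12 rose and 5 fell (edgeR adjusted p under 0.05), 23.6% of those tested beside 17.4% of all genes, with a median log2 fold change of −0.01. In H448L against WT, 2 rose and 1 fell, 4.17% beside 7.97%, also with a median of −0.01. In H448L against R227Q none of the 72 passed edgeR's test, beside 0.207% of all genes. At an unadjusted p under 0.05 (edgeR) were 13 of the 72, beside 1838 of all 16908 genes tested. Of the 72, limma-voom called 0 and DESeq2 called 2, beside 54 genes that DESeq2 called in all. DESeq2 gave no adjusted p to 15734 genes in this comparison. By list these included 12 NRF2 control, 12 glutathione, 7 thioredoxin, 4 NADPH and 17 quinone and carbonyl genes, which it did not judge. All genes had medians of 0.00 and 0.01 in the comparisons with WT. Without the table term, 2 of the 17 genes called in R227Q, BACH2 and SESN2, and none of those in H448L passed edgeR's test. DESeq2 called 10 pathway genes in R227Q and 2 in H448L. In H448L against WT it gave no adjusted p to 7 NRF2 control, 3 glutathione, 3 thioredoxin and 5 quinone and carbonyl genes.

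Among 14 genes that control NRF2, edgeR called 1 in R227Q cells, higher, and did not call 13. That was 7.14% of the list, beside 17.4% of all genes tested. There limma-voom called 2 of the 14 and DESeq2 called 0. BACH2, a lymphoid relative of the HMOX1 repressor BACH1, rose by 0.77 ± 0.18 (edgeR adjusted p = 0.0024), averaging 4.53 ± 0.32 CPM in R227Q and 2.60 ± 0.13 CPM in WT cells (SD, n = 3 each), which was no longer called once WT 3 (0.75) or R227Q 1 (0.79) was left out, or with DESeq2 (0.76). KEAP1, which holds NRF2 back, stood at −0.09 ± 0.05 and RBX1, a subunit of the CUL3 ligase, at 0.12 ± 0.04 (edgeR adjusted p = 0.21 and 0.051). RBX1 was called with limma-voom (0.12), upper-quartile factors (0.14) or a minimum mean of 10 counts (0.12), and without R227Q 3 (0.13), H448L 1 (0.12) or H448L 3 (0.12). In H448L cells none of the 14 passed edgeR's test. At an unadjusted p under 0.05 (edgeR) were 2 of them, beside 3634 of all 16908 genes tested. Calls by limma-voom and by DESeq2 were 0, and DESeq2 gave 7 of the 14 no adjusted p. KEAP1 stood at −0.14 ± 0.06, BACH2 at 0.50 ± 0.21 and MAFK, a small MAF partner of NRF2, at −0.14 ± 0.11 (edgeR adjusted p = 0.13, 0.18 and 0.53).

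In the list of glutathione synthesis and conjugation, 17 of 22 genes were tested. Of these, 5 rose and 1 fell in R227Q cells (edgeR), 35.3% beside 17.4% of all genes tested, whereas DESeq2 called 3 in all. GSS, glutathione synthetase, rose by 0.33 ± 0.07, SLC3A2, the heavy chain of the cystine transporter, by 0.18 ± 0.04, and GSTP1, an abundant glutathione transferase, by 0.17 ± 0.04 (edgeR adjusted p = 0.0013, 0.0013 and 0.0019). Inside the tables GSS differed by 0.20 (SDKYMR) and 0.51 (4LJFHN). The GSS (0.19) and SLC3A2 (0.15) calls were lost without WT 3, the GSTP1 call without R227Q 1 (0.10), and GSS was 0.52 without R227Q 1 and 0.17, not called, without the table term. The other calls lay outside the naming rule and were singled out after their values were seen: SLC7A11, the cystine-specific chain of that transporter, rose by 0.20 ± 0.06 and GSTO1 by 0.14 ± 0.05, and MGST2 fell by 0.20 on the log2 scale (edgeR adjusted p = 0.013, 0.029 and 0.016). In H448L cells 1 gene, GSTP1, rose, by 0.14 ± 0.04 (edgeR adjusted p = 0.039), 5.88% of the list's tested genes beside 7.97% of all. With each library left out in turn, the GSTP1 call was lost in every case but without H448L 1 (0.10 to 0.22 over the 9). GSTO1 stood at 0.16 ± 0.06 and MGST2 at −0.21 ± 0.07 (edgeR adjusted p = 0.075 and 0.056). MGST2 was called with RLE factors (−0.22), with every gene that had a count (−0.23) and without H448L 1 (−0.27).

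Of 14 thioredoxin and peroxiredoxin genes, 2 rose and 1 fell in R227Q cells, 21.4% beside 17.4% of all genes tested. TXNIP, which binds and inhibits thioredoxin, rose by 0.42 ± 0.09, SESN2, a stress-induced sestrin, rose by 0.33 ± 0.06, and PRDX4, the peroxiredoxin of the endoplasmic reticulum, fell by 0.29 on the log2 scale (edgeR adjusted p = 0.00084, 0.00018 and 4.5e-06). SESN2 averaged 54.7 ± 1.16 CPM in R227Q and 43.0 ± 1.90 CPM in WT cells. The TXNIP call was lost without R227Q 1 (0.31). In H448L cells 1 rose and 1 fell, 14.3% of the list beside 7.97% of all genes tested. There TXNIP rose by 0.44 ± 0.10 and PRDX4 fell by 0.24 on the log2 scale (edgeR adjusted p = 0.0059 and 0.00071). SESN2 stood at 0.20 ± 0.07 in H448L cells (edgeR adjusted p = 0.071). The TXNIP call was lost without R227Q 1 (0.36) and the PRDX4 call without WT 3 (−0.24). Neither was called without the table term, with TXNIP at 0.27 and PRDX4 at −0.11.

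Of 7 genes for NADPH supply, 1 fell in R227Q cells, 14.3% beside 17.4% of all genes tested. None passed in H448L cells, where edgeR, limma-voom and DESeq2 each called 0. In H448L cells 1 of the 7 was at an unadjusted p under 0.05 (edgeR), beside 3634 of all 16908 genes tested. The gene that fell was TKT, transketolase, at −0.13 ± 0.04 (edgeR adjusted p = 0.036), no longer called once WT 2, WT 3 or any 1 of the R227Q libraries was left out (−0.18 to −0.08 over all libraries left out in turn). TKT was not called either with upper-quartile factors (−0.10) or without the table term, where it was at −0.33. IDH1, cytosolic isocitrate dehydrogenase, stood at −0.15 ± 0.05 in R227Q and −0.17 ± 0.06 in H448L cells, and PGD, of the pentose phosphate pathway, at 0.05 ± 0.04 in R227Q cells (edgeR adjusted p = 0.057, 0.089 and 0.48). IDH1 was called in R227Q with RLE factors (−0.16) and without R227Q 3 (−0.17), H448L 1 (−0.14) or H448L 3 (−0.14), and in H448L without H448L 1 (−0.22). In H448L cells PGLS and TALDO1, also of that pathway, stood at 0.13 ± 0.06 and −0.06 ± 0.05 (edgeR adjusted p = 0.25 and 0.46).

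In the list of quinone, carbonyl and haem handling, 20 of 25 genes were tested. Of these, 4 rose and 2 fell in R227Q cells (edgeR), 30% beside 17.4% of all genes tested. DESeq2 called 3 in all and gave 2 no adjusted p. The ferritin chains FTL and FTH1, which store iron, rose by 0.22 ± 0.04 and 0.15 ± 0.04, and NQO2, the paralog of NQO1, fell by 0.32 on the log2 scale (edgeR adjusted p = 5.2e-05, 0.014 and 0.0035). NQO2 averaged 23.5 ± 1.60 CPM in R227Q and 29.9 ± 0.98 CPM in WT cells (SD, n = 3 each). The FTH1 call was lost without WT 3 (0.12) or R227Q 1 (0.18), and the NQO2 call without WT 3 (−0.28). Processed copies of the ferritin genes could share reads with them, which makes these counts uncertain. The other calls, outside the naming rule and singled out after their values were seen, were PTGR1, a prostaglandin reductase, at 0.25 ± 0.07, AKR7A2, another aldo-keto reductase, at 0.15 ± 0.05, and OSGIN1 at −0.65 ± 0.20 (edgeR adjusted p = 0.017, 0.028 and 0.024). In H448L cells none of the 20 passed edgeR's test. At an unadjusted p under 0.05 (edgeR) were 2 of them, beside 3634 of all 16908 genes tested. Calls by limma-voom and by DESeq2 were 0, and DESeq2 gave 5 of the 20 no adjusted p. There FTL stood at 0.10 ± 0.04, UGDH, which makes UDP-glucuronate, at −0.18 ± 0.06 and OSGIN1 at −0.48 ± 0.23 (edgeR adjusted p = 0.13, 0.082 and 0.25).

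**Figure D4:**
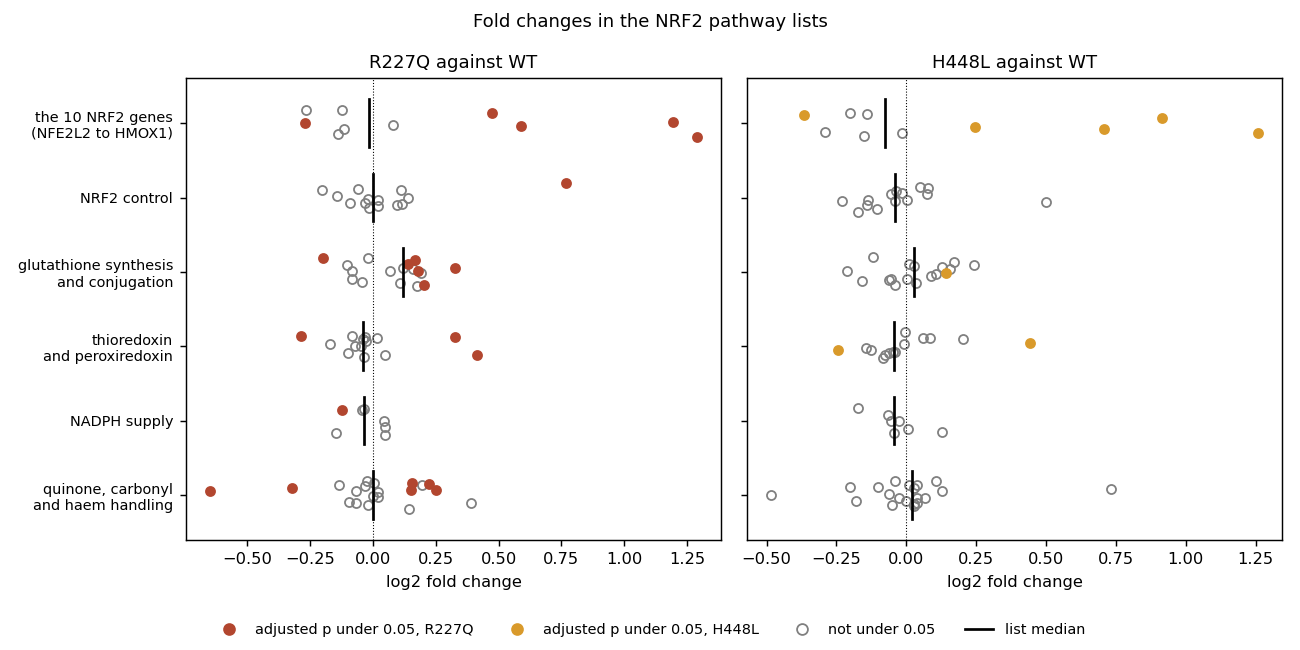
Points are log2 fold changes (horizontal axes) of the tested genes of each list (vertical axis) against WT, R227Q on the left and H448L on the right. Filled points had an adjusted p under 0.05, open points did not, and black bars are list medians, which lie between −0.08 and 0.12.

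Between the variants, the genes of the lists with the smallest p included RBX1, BACH2 and PALB2, SLC3A2, MGST1 and MGST3, PRDX1, PRDX5 and SESN2, PGLS and TKT, and NQO2, FTH1 and FTL. In H448L cells NQO2 stood 0.28 ± 0.08 above R227Q and SLC3A2 −0.15 ± 0.04 from it (edgeR adjusted p = 0.14 and 0.12). DESeq2 called SLC3A2 (−0.14) and FTL (−0.12), and FTH1 was called with every gene that had a count (−0.16) and without H448L 1 (−0.20).

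The genes with a pattern most like AKR1C1 were sought by the root-mean-square difference of log2 CPM over the 9 libraries, each gene centred within its table, among 11122 other named genes of at least 5 CPM. RET, a receptor tyrosine kinase, came first (0.0993), then IFITM1, an antiviral membrane protein (0.107), IGF2, a growth factor (0.110), ASS1, argininosuccinate synthase (0.114), and SYT17, a synaptotagmin (0.120). The median over all candidates was 0.472. Their log2 fold changes ran from 0.97 (SYT17) to 1.25 (IGF2) in R227Q and from 0.71 (SYT17) to 0.91 (IFITM1) in H448L, both against WT. For NQO1 the nearest were SOCS2, an inhibitor of cytokine signalling (0.0255), DLK2 (0.0391), RAMP2, a receptor activity modifier (0.0477), RPS6KA2, a kinase (0.0478), and SFRP1, a secreted WNT antagonist (0.0484), beside a median of 0.209. Their log2 fold changes ran from 0.41 (RPS6KA2) to 0.49 (RAMP2) in R227Q and from 0.17 (RPS6KA2) to 0.30 (SFRP1) in H448L. These genes were chosen for their pattern, so the values are a description.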

How the data were processed

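Poly-A mRNA was measured in 9 Hap1 libraries. Per the labels' protocols, a sequencing service extracted RNA from lysates, captured poly-A RNA, and tagmented the double-stranded cDNA for Illumina sequencing. The submitters' processing notes name the genome build GRCh38. The aligner, counting program, annotation and strand setting were not given in the sources used here. The authors deposited estimated counts per gene, without normalization, and CPM, per the file headers, in 2 tables. Each deposited CPM equalled the count per 1000000 counts of its library, within a tolerance of 1e-05. Of the values above 0, 70.4% to 72.5% per library were whole. The deposited estimated counts were rounded before testing.

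The 92 spike-in entries were left out. Genes passing edgeR's filterByExpr were fitted with TMM factors (0.969 to 1.02) and edgeR's quasi-likelihood test, with the group and the table as terms and 5 residual degrees of freedom. Benjamini-Hochberg adjustment ran over all genes tested (two-sided, adjusted p under 0.05). Standard errors were derived from each log2 fold change and its F statistic. Within-table differences compare means of log2 CPM (prior count 2). Fits were also run on counts simulated from the fit's own means and dispersions, which cannot check what the spread between libraries stands for. R 4.3.3, edgeR 4.0.16, limma 3.58.1, DESeq2 1.42.0 and Biopython 1.88 were used.

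The member genes, the lists and the tests were chosen with earlier results of these data known. Named genes were the members, SARS2, the 3 genes of each pathway list with the smallest p in each comparison, and the 5 genes most like AKR1C1 and the 5 most like NQO1. The text says where a gene falls outside this rule. A gene that the rule names is not reported here. Alternatives tried were limma-voom, DESeq2, other scaling factors and filters, no table term, the 4LJFHN table alone, a replicate block, each library left out in turn, and the AKR1C counts summed. Adding an overlapping gene's counts to SRXN1 was chosen after seeing the data.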

Additional observations from a re-analysis of the deposited data

Results flagged for a closer look

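The annotated gene ENSG00000270299, which the tables give without a name and which no comparison uses by itself, had between 75 and 182.5 counts per library. It overlaps SRXN1 on the same strand, and its counts equalled those of SRXN1 in 7 of 9 libraries.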

How the results depend on the processing

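Of 1913 recomputed log2 fold changes, 1732 kept their direction and their side of the threshold, 121 lost a call, 28 gained one and 32 changed sign. Without the table term, 312 genes were called for R227Q against WT, 147 for H448L against WT and 1 for H448L against R227Q, with 2, 1 and 0 of the 10 NRF2 genes and 2, 0 and 0 of the pathway genes. These compare with 2944, 1347 and 35 genes, 5, 5 and 1 of the 10, and 17, 3 and 0 pathway genes as reported. In the 4LJFHN table alone, with a single WT library assumed to vary like the others, 1138 genes were called for R227Q and 734 for H448L against WT, with 2 and 3 of the 10, and 6 pathway genes for R227Q. DESeq2 called 1546, 733 and 54 genes, with 3, 1 and 0 of the 10, and 10 pathway genes for R227Q and 2 between the variants. By its own filter DESeq2 gave no adjusted p to 1, 5 and 10 of the 10 in these comparisons. The gene was AKR1C2 for R227Q against WT. For H448L against WT the genes were AKR1C1, AKR1C2, AKR1C3, SRXN1 and HMOX1. DESeq2 thus neither kept nor lost the AKR1C and HMOX1 calls in H448L. Values without an adjusted p are not among the 1913. With every gene that had a count, 122 genes and 1 pathway gene were called between the variants. The causes of the other changes were not tested.

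With 1 library left out in turn, the counts were 1093 to 3262 genes, 3 to 5 of the 10 and 6 to 19 pathway genes for R227Q against WT. For H448L against WT they were 253 to 1378, 1 to 5 and 1 to 5, and for H448L against R227Q 4 to 91, 0 to 1 and 0 to 1. The lowest counts against WT came without WT 3, which alone represents WT in 4LJFHN. With upper-quartile factors 54.0% of the genes called for R227Q were higher, against 43.1% with TMM factors, and for H448L 47.2% against 37.3%.

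Whether replicate numbers pair the libraries could not be settled. Of 9 pairs with the same number, 1 had a correlation of deviations from group and table means over 0.1 (−0.40 to 0.12). Removing group and table itself fixes some of these correlations: WT 3 and R227Q 1, with different numbers, had 1.00. WT 1 and R227Q 1 had −0.40, but 0.66 with the group alone removed. With a replicate block 2669, 1055 and 31 genes were called, with 4, 4 and 1 of the 10 and 15, 4 and 1 pathway genes. Under the block GCLM (−0.26) and TKT (−0.10) for R227Q and AKR1C2 (1.17) and TXNIP (0.40) for H448L were not called, and IDH1 for R227Q (−0.16), MGST2 for H448L (−0.28) and FTH1 between the variants (−0.19) were.

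Signs turned mostly near 0. Without the table term, RBX1 (−0.00) and PGD (−0.02) turned for R227Q against WT, NFE2L2 (0.04), GCLC (0.09), MAFK (0.16) and GSTO1 (−0.36) for H448L against WT, and NFE2L2 (0.07), AKR1C3 (−0.19), GCLM (0.01), SRXN1 (−0.23), SARS2 (−0.01), MGST1 (−0.03), MGST3 (0.01), PRDX5 (−0.08), TKT (−0.19) and SFRP1 (0.02) for H448L against R227Q. GCLC for H448L was 0.00 with upper-quartile factors, and AKR1C3 between the variants was −0.13 as the AKR1C sum. With libraries left out, GCLC (−0.10 to 0.04) and SRXN1 (−0.36 to 0.06) for H448L against WT, and NFE2L2 (−0.05 to 0.00), AKR1C2 (−0.10 to 0.03), TXNRD1 (−0.09 to 0.01), GCLM (−0.11 to 0.07), SRXN1 (−0.03 to 0.16) and IFITM1 (−0.20 to 0.02) between the variants spanned 0. AKR1C2, with 6.5 counts in WT 3, is the gene of the 10 most limited by depth.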
